A study of Mus musculus with 6 samples.

Results

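Myc and the proteins that share its partner Max were examined in B cell progenitors (pro-B and pre-B cells of the bone marrow, in which immunoglobulin genes are put together) from old and young mice. The members were Myc and its paralogue Mycn as activators, Max as the shared partner, and Mxd1, Mxd3, Mxd4, Mxi1, Mnt and Mga as repressors. Every probe set that the platform annotation pairs with one of these genes alone was taken, which gave 9 probe sets, 1 for each of the 9 genes, of 21789 probe sets with 1 gene and 19938 genes in all. Each RNA came from sorted pro-B and pre-B cells combined, taken from BALB/c mice, an inbred laboratory strain, without further manipulation. The old group had 3 arrays from animals of 24 months and the young group 3 arrays from animals of 2 months, each from 100 ng of RNA amplified before labelling. Whether an array holds 1 animal or a pool is not stated in the labels, so p-values measure only the spread between these arrays.

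MYC and MYCN bind DNA only as a dimer with MAX, at the E-box sequence CACGTG and its variants, and raise transcription of genes for ribosome production, nucleotide synthesis and entry into the cell cycle. MXD1, MXD3, MXD4, MXI1 and MNT compete for MAX and recruit the SIN3 corepressor with its histone deacetylases to the same sites, while MGA pairs with MAX inside a Polycomb complex called PRC1.6. In B cell progenitors MYC and MYCN are known to act downstream of interleukin-7 in the dividing pro-B and large pre-B stages, and Myc transcription is shut down as pre-B cells stop dividing.

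The E-box is shown in the promoters of those members that carry it, since it is the sequence all the network's dimers read. RefSeq promoter entries (GRCm38.p6), covering 250 bases before and 50 bases after a start site, matched 8 of the 9 members, with Myc the one not matched, and gave 10 windows. CACGTG, which reads the same on both strands, was present in windows of 3 members, Max, Mnt and Mxd4. Of all 32851 windows of this length, 7.15% hold it. The stretches below run from the start of the window to the start site, or for Max to the end of the motif, and the capitals mark the E-box.
Max, chr12:76962246-76962498 (- strand): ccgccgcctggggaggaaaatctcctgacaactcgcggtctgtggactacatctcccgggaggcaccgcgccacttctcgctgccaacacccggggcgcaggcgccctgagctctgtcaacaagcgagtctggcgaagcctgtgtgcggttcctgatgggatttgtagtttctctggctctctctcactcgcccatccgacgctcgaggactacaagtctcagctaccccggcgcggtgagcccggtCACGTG
Mnt, chr11:74830674-74830923 (+ strand): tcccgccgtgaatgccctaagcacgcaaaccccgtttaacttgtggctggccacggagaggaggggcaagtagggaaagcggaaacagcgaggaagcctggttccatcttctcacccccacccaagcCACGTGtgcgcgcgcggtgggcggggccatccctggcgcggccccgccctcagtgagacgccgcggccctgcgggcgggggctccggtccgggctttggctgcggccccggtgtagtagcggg
Mxd4, chr5:34187711-34187960 (- strand): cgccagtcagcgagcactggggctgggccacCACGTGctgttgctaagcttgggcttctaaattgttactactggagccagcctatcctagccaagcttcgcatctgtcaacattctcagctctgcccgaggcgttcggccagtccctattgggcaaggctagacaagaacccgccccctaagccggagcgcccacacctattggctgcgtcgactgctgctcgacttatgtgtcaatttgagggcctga
In Max the motif spans the annotated start site, from base -3 to base 3. In Mnt it lies from base -123 to -118 and in Mxd4 from base -219 to -214. These matches describe letters in a window and say nothing of binding. The base composition of the 3 windows, 64.7%, 70.7% and 61.0% G or C for Max, Mnt and Mxd4, lay above the median of 52.7% over all windows.

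Before any member is described, the arrays themselves have to be told apart. Over the tested probe sets the correlation with the young arrays was 0.607 to 0.702 for old replicates 1 and 2, and 0.978 to 0.985 for old replicate 3. The level of background was read from 1372 probe sets for odorant and pheromone receptors, genes of sensory neurons, as their 95th percentile on each array (the receptor level). It stood at 6.31, 6.41 and 5.17 on old replicates 1, 2 and 3, against 4.81, 4.84 and 4.60 on young replicates 1, 2 and 3, all as log2 intensity. Of 11 measured pro-B and pre-B markers, 4, 3 and 9 lay above it on old replicates 1, 2 and 3, against 10, 10 and 11 on young replicates 1, 2 and 3. The sorted cell type was therefore not seen in most of its markers on old replicates 1 and 2. Of the members, 3, 3 and 8 were above the receptor level on old replicates 1, 2 and 3, against 8, 8 and 9 on young replicates 1, 2 and 3. Results are given for all 3 old arrays and for old replicate 3 alone against the young arrays, which has a single old array that is assumed to vary as the young ones do.

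In the comparison of 3 old with 3 young arrays 0 of the 9 members passed the threshold of an adjusted p under 0.05 with limma, nor did any probe set (0% of 23410). An unadjusted p under 0.05 was reached by 4 members, Myc, Mycn, Max and Mga, beside 46.8% of all probe sets. The 3 old and 3 young values did not overlap for 5 members, of which Myc, Max and Mga were below the young arrays and Mycn and Mnt above. The same held for 59.0% of all probe sets, 22.9% with the old arrays below and 36.1% with them above. For each of these 5 members an exact 2-sided permutation test over the arrays gives p = 0.1, the smallest that 3 against 3 allows.

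**Figure D1:**
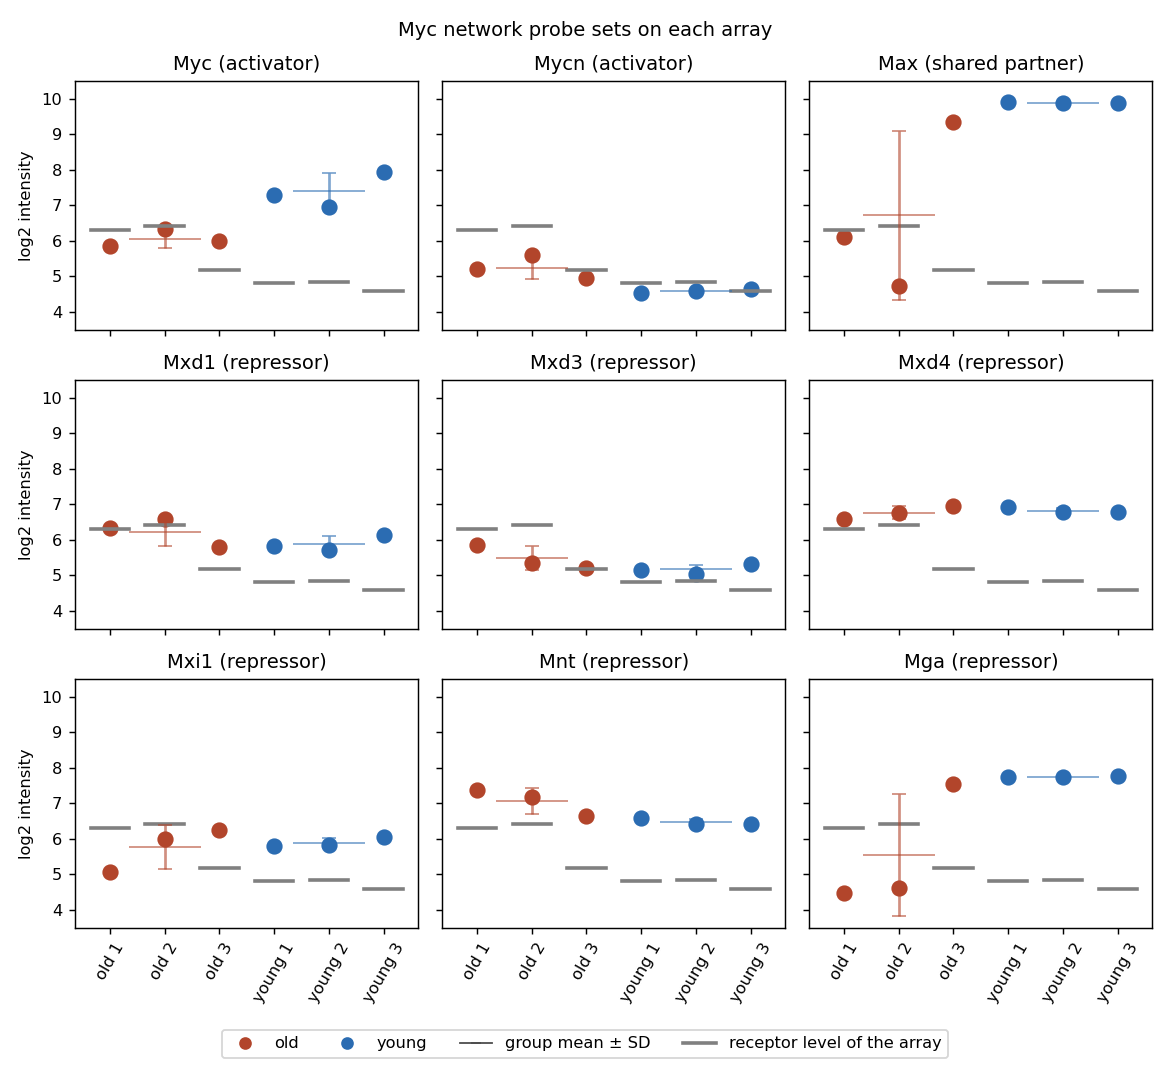
Log2 intensity of each member's probe set on the 3 old arrays (red, left) and the 3 young arrays (blue, right). Thin horizontal lines with bars are group means with SD, and thick grey dashes are the receptor level of each array. Myc is low on all 3 old arrays, whereas Max and Mga are low on old replicates 1 and 2 and close to the young values on old replicate 3.

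Myc, which drives growth and division, was the activator with a measurable level. It stood at 5.84, 6.33 and 5.999 on old replicates 1, 2 and 3, against 7.30, 6.96 and 7.95 on young replicates 1, 2 and 3. All old values were below all young ones, by at least 0.63 on the log2 scale. The means were 6.06 ± 0.25 in the old and 7.40 ± 0.50 in the young group (SD, n = 3 each). The difference was -1.35 ± 0.31 (SE), or 2.54-fold lower in the old group, at an adjusted p of 0.101 in the limma fit. The Myc value on old replicates 1 and 2 lay within the receptor level, so its size there is not measured. On the deposited scale, with those values raised to the receptor level, the difference was -1.16, or 2.24-fold lower. This difference is not a lower bound under other scalings. After quantile normalization it was -0.69, and without old replicate 3 it was -1.04 with the values raised (adjusted p = 0.00639 with limma on the values as deposited), where 82.4% of all probe sets were called, 30.2% lower and 52.2% higher, and 6 of the 9 members.

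On old replicate 3, whose signal was closest to that of the young arrays, Myc was above the receptor level and 1.40 ± 0.32 (SE) lower than the young mean on the log2 scale. This is 2.65-fold lower, at an adjusted p of 0.0468 with limma. In that comparison 7.00% of all probe sets were called, 5.24% lower and 1.76% higher. A deviation at least as low on old replicate 3 was seen in 0.222% of all tested probe sets. In these sorted populations, fewer cells that express Myc and less Myc RNA per cell cannot be told apart.

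Myc also varied among the young arrays more than most probe sets. It was highest on young replicate 3 and lowest on young replicate 2, a range of 0.99, and 0.615% of tested probe sets had a young SD as large. Young replicate 3 was the highest young array for 36.5% of all probe sets. Of the 11 measured pro-B and pre-B markers 4 were also highest on young replicate 3, a share near that of all probe sets, and Dntt and Igll1 were among them. Single markers of cell type are named here after their values were seen. Dntt, the enzyme that adds untemplated nucleotides at heavy chain joints in pro-B cells, was at 4.56, 6.17 and 5.13 on old replicates 1, 2 and 3, against 6.69, 6.59 and 8.18 on young replicates 1, 2 and 3. Igll1, part of the surrogate light chain, was at 7.14, 8.93 and 7.86 on the old arrays, against 9.11, 8.77 and 9.54 on the young arrays. Both were lower on old replicate 3 than on every young array, Igll1 at an adjusted p of 0.0346 and Dntt, there within the receptor level, at 0.0665 with limma. Of the 11 pro-B and pre-B markers 5 were below all young arrays on old replicate 3, beside 31.8% of all probe sets. Pax5 was the 1 marker above all of them, 0.22 over their mean, beside 41.7% of all probe sets. Vpreb1, also part of the surrogate light chain, lay between young values there, at 10.82 against 11.15, 10.76 and 11.07. Kit, also highest on young replicate 3, lay between young values and within the receptor level.

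All 10 granulocyte markers were highest on young replicate 3 among the young arrays. Of these 10, 3 were below every young array on old replicate 3 and 1 was above every one, beside 31.8% and 41.7% of all probe sets, and 0 were called. Their summed intensity was 2101, 4856 and 8583 on old replicates 1, 2 and 3, against 8418, 8096 and 10411 on young replicates 1, 2 and 3, so old replicate 3 lay within the range of the young arrays. Mpo, a peroxidase of granulocyte precursors, stood at 5.22, 4.97 and 6.94 on old replicates 1, 2 and 3, against 7.60, 7.34 and 8.32 on young replicates 1, 2 and 3. S100a8, a calcium-binding protein of neutrophils, was on old replicate 3 the 1 marker above every young array, 0.14 above their mean. S100a8 and S100a9 made up most of the summed intensity on every array. On old replicate 3, 8 of the 10 markers lay below the young mean. Mpo, Ctsg and Ltf, those below every young array, differed from it by -0.81, -0.86 and -0.68. All 10 lay above the receptor level on old replicate 3 and on the young arrays, and 3 did on old replicates 1 and 2 each.

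Markers of other cell types were read in the same way. All 5 macrophage markers and all 4 measured erythroid markers were highest on young replicate 3 among the young arrays and below the young mean on old replicate 3, with 2 of each list below every young array there. The summed intensity of the macrophage list was 183 to 403 on the old arrays and 538 to 1124 on the young arrays. That of the erythroid list was 146 to 213 against 204 to 276. On old replicate 3 and the young arrays the macrophage sum came mostly from Lyz2, at log2 values of 8.17 against 8.88, 8.66 and 9.86. Adgre1 and Cd14 were within the receptor level on all 6 arrays, and Csf1r was above it only on young replicate 3. Klf1 and Epor were within it on all 3 old arrays. By group means 3 of the 5 macrophage and 3 of the 4 erythroid markers were higher in the old group. Lyz2, the lysozyme of macrophages and granulocytes, differed by -0.96 ± 0.40 (SE) on old replicate 3 and did not pass (adjusted p = 0.170 with limma). Car1, a carbonic anhydrase of early erythroid cells, was within the receptor level on all 3 old arrays and was called lower on old replicate 3, by at least 3.35-fold (adjusted p = 0.00817 with limma). Of the 4 stromal markers, the collagen genes Col1a1 and Col1a2 were above every young array on all 3 old arrays, beside 36.1% of all probe sets. On old replicate 3 they lay 0.50 and 0.54 over the young mean, which did not pass. The other stromal markers, Cxcl12 and Lepr, lay between young values on old replicate 3 and within its receptor level. Of the 6 T cell markers and the 6 mature B and plasma cell markers, 2 each were above every young array on old replicate 3 and 0 were below. Of all probe sets 41.7% were above and 31.8% below in this way. Among those above, Cd8a and Prdm1 were within the receptor level on all 6 arrays. Cd3e and Jchain, also among those above, exceeded the receptor level on old replicate 3 and lay 0.58 and 0.65 over the young mean. On young replicate 1 Cd3e was within the receptor level. The part of these cell type differences in the Myc values was not tested.

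**Figure D2:**
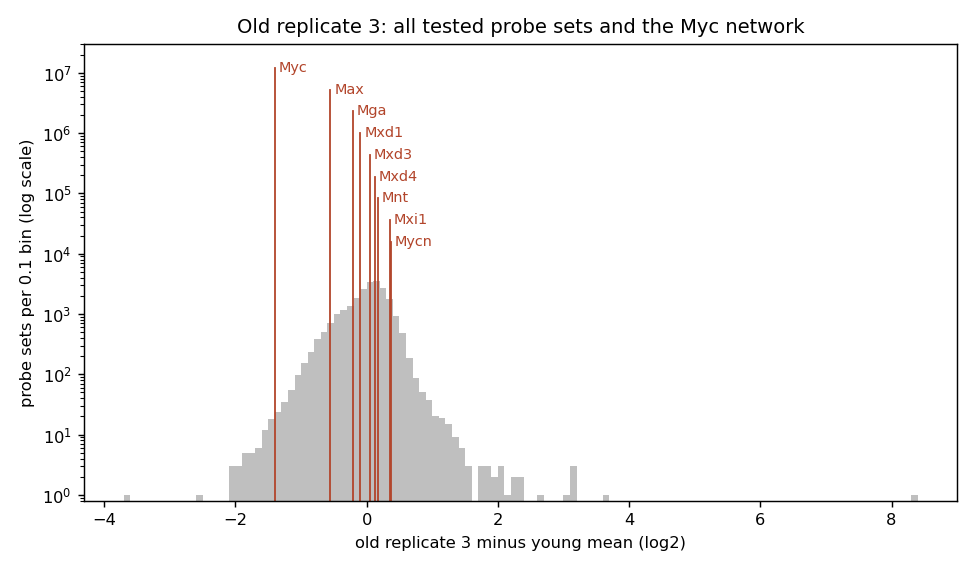
Number of tested probe sets (log axis) by their log2 difference between old replicate 3 and the young mean, in bins of 0.1, with a red line for each member. Myc at -1.40 lies in the sparse lower tail and Max at -0.55 at the lower shoulder, while the other members lie between -0.21 and 0.37, within the body of the distribution.

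The named genes with array profiles closest to that of Myc were Uaca, Cep290, Erg, Alox5ap and Etv6. Likeness was the Euclidean distance between deviations from the young mean over the 6 arrays, searched over 17398 genes. The distances ran from 0.32 for Uaca to 0.45 for Etv6. On old replicates 1 and 2 all of these genes, like Myc, were within the receptor level, so likeness there is between background values. Uaca and Cep290 were within it on old replicate 3 too, and Cep290 on young replicate 2. Erg, an ETS transcription factor of stem cells and early lymphoid progenitors, was at 5.61, 6.35 and 5.58 on old replicates 1, 2 and 3, against 6.97, 6.73 and 7.95 on young replicates 1, 2 and 3. Alox5ap, which supplies arachidonic acid to leukotriene synthesis, was at 5.88, 6.30 and 6.22 on the old arrays, against 7.31, 7.26 and 8.32 on the young arrays. Each was highest on young replicate 3 and lower on every old array than on every young one, as the choice by likeness to Myc implies. Etv6, another ETS family member, differed by -1.20 between old and young means, Cep290, a ciliary gene, by -1.20, and Uaca by -1.18.

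Mycn, the paralogue of Myc used in embryonic and some progenitor cells, gave no measurable level. It stood at 5.19, 5.59 and 4.96 on old replicates 1, 2 and 3, against 4.53, 4.59 and 4.64 on young replicates 1, 2 and 3. It was within the receptor level on all 3 old arrays and on young replicates 1 and 2, and just above it on young replicate 3. The old values were all above the young ones, but so was the receptor level itself, and no size of change is given.

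Max, the partner that MYC needs to bind DNA, had the largest difference in means of the 9 members. It stood at 6.10, 4.72 and 9.34 on old replicates 1, 2 and 3, against 9.91, 9.89 and 9.87 on young replicates 1, 2 and 3. The old values thus fell apart, with replicates 1 and 2 within the receptor level and replicate 3 near the young arrays. The means were 6.72 ± 2.37 in the old and 9.89 ± 0.02 in the young group (SD, n = 3 each), a difference of -3.17 ± 1.07 (SE, adjusted p = 0.101 with limma). With values raised to the receptor level it was -2.54, or 5.82-fold lower on the deposited scale. On old replicate 3 alone Max was 0.55 ± 0.12 (SE) lower, 1.47-fold, at an adjusted p of 0.0433 with limma. A value as low relative to the young mean on that array was seen in 7.77% of all probe sets. Without old replicate 3, where both remaining old values are within the receptor level, the raised difference was -3.53 (adjusted p = 8.87e-05 with limma on the values as deposited). In that setting 30.2% of all probe sets were called lower.

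Mga, the giant MAX partner that also carries a T-box, followed the same split as Max. It stood at 4.49, 4.62 and 7.53 on old replicates 1, 2 and 3, against 7.74, 7.74 and 7.77 on young replicates 1, 2 and 3. On old replicates 1 and 2 it was far within the receptor level, and on old replicate 3 it was 0.20 below the lowest young array. The means were 5.55 ± 1.72 in the old and 7.75 ± 0.02 in the young group (SD, n = 3 each), a difference of -2.20 ± 0.79 (SE, adjusted p = 0.101 with limma). With values raised to the receptor level this became -0.999, or 2.00-fold lower on the deposited scale. On old replicate 3 alone the difference was -0.21 ± 0.12 (SE, adjusted p = 0.296 with limma), which did not pass. Without old replicate 3, where both remaining old values are within the receptor level, the raised difference was -1.39 (adjusted p = 6.56e-06 with limma on the values as deposited). In that setting 30.2% of all probe sets were called lower.

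Mnt, the broadly expressed repressor that takes MAX away from MYC, was above the receptor level on all 6 arrays. It stood at 7.36, 7.17 and 6.64 on old replicates 1, 2 and 3, against 6.58, 6.41 and 6.42 on young replicates 1, 2 and 3. All old values exceeded all young ones, old replicate 3 by 0.07. The means were 7.06 ± 0.37 in the old and 6.47 ± 0.09 in the young group (SD, n = 3 each). The difference of 0.59 ± 0.25 (SE) did not pass, at an adjusted p of 0.109 with limma. The median difference of all tested probe sets was itself 0.35, so Mnt lay 0.24 above it. The direction stayed the same under every scaling, from 0.24 after median centring to 1.48 after quantile normalization. On old replicate 3 alone Mnt differed by 0.18 ± 0.13 (SE, adjusted p = 0.431 with limma), and 30.5% of all probe sets were as high there. Without old replicate 3 the difference was 0.80 ± 0.14 (SE, adjusted p = 0.00181 with limma). In that setting the median of all probe sets was 0.50, and 52.2% of them were called higher.

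The 4 members of the MXD family gave overlapping values in old and young arrays. Mxd1, induced when blood cells stop dividing and mature, was at 6.32, 6.58 and 5.80 on old replicates 1, 2 and 3, against 5.82, 5.72 and 6.14 on young replicates 1, 2 and 3. It was above the receptor level on all 6 arrays, on old replicate 1 only just. Its difference of 0.34 ± 0.28 (SE, adjusted p = 0.309 with limma) was at the median of all probe sets, and it turned to -0.0067 after median centring and to -0.098 on old replicate 3 alone. Without old replicate 3 it was 0.56 ± 0.18 (SE, adjusted p = 0.0226 with limma). The median of all probe sets in that setting was 0.50, and 52.2% of them were called higher.

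Mxd3, the MXD member linked to the S phase of dividing cells, was at 5.86, 5.35 and 5.22 on old replicates 1, 2 and 3, against 5.16, 5.04 and 5.31 on young replicates 1, 2 and 3. On old replicates 1 and 2 it was within the receptor level. The difference was 0.31 ± 0.25 (SE, adjusted p = 0.303 with limma). It turned to -0.037 after median centring and was 0.81 with the values raised to the receptor level. On old replicates 1 and 2 that level exceeded every young value of Mxd3, so the raising itself fixed the sign of the latter.

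Mxd4, found in differentiating cells, had the smallest difference in means of the 9 members. It stood at 6.58, 6.77 and 6.95 on old replicates 1, 2 and 3, against 6.92, 6.77 and 6.79 on young replicates 1, 2 and 3, above the receptor level throughout. The means were 6.77 ± 0.18 in the old and 6.83 ± 0.08 in the young group (SD, n = 3 each), with a difference of -0.06 ± 0.21 (SE, adjusted p = 0.809 with limma). Quantile normalization turned it to 0.73 and old replicate 3 alone to 0.12.

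Mxi1, also called MXD2, was at 5.05, 6.01 and 6.24 on old replicates 1, 2 and 3, against 5.79, 5.81 and 6.04 on young replicates 1, 2 and 3. It was within the receptor level on old replicates 1 and 2. The difference was -0.12 ± 0.34 (SE, adjusted p = 0.773 with limma), and it was 0.44 with those values raised to the receptor level. That level, 6.31 and 6.41 on old replicates 1 and 2, exceeded every young value, so the raising itself fixed this sign. The direction of Mxi1 is not settled. On old replicate 3 alone Mxi1 was 0.36 ± 0.15 (SE) above the young mean, which did not pass (adjusted p = 0.170 with limma).

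**Figure D3:**
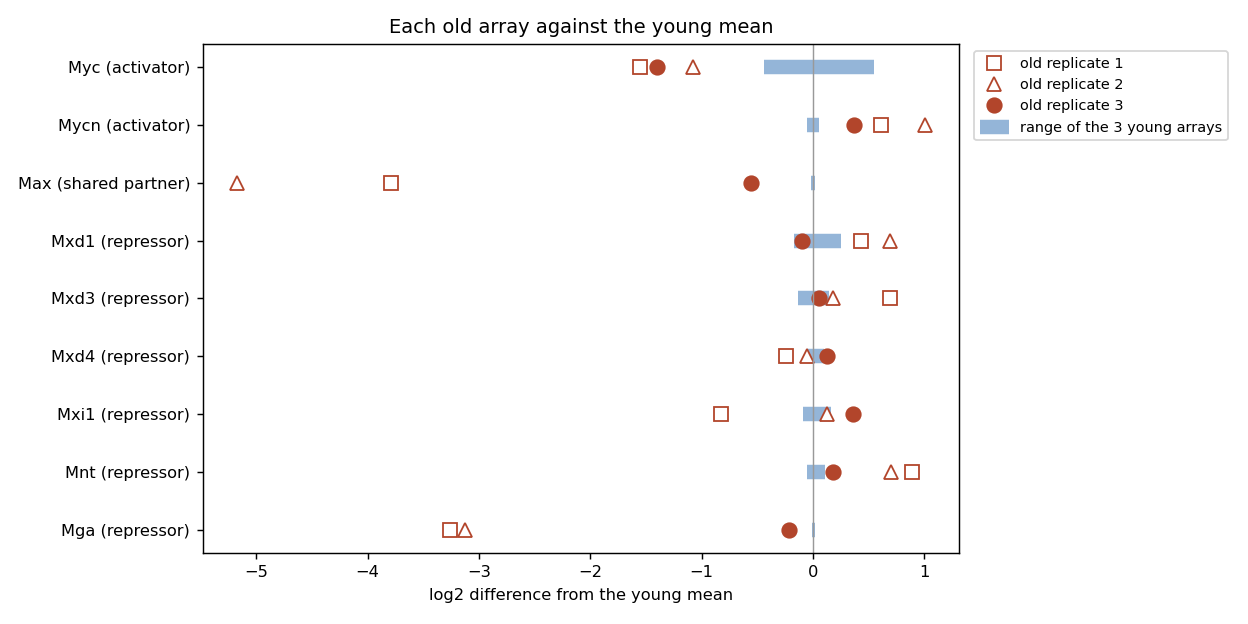
Log2 difference of each old array from the young mean for each member, with blue bars for the range of the 3 young arrays. Myc alone among the members lies more than 1 below the young mean on all 3 old arrays, between -1.56 and -1.08. On old replicates 1 and 2 it is within the receptor level, so its size there is not measured. The MXD genes lie between -0.83 and 0.69.

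Set side by side on old replicate 3, 2 of the 9 members were called, Myc and Max, both lower, beside 7.00% of all probe sets called and 5.24% called lower. Neither Mycn (adjusted p = 0.117 with limma) nor any of the 6 repressors was called, and a count of 0 among 6 is near these shares. Relative to the 3 young arrays, old replicate 3 was below all of them for 3 members (Myc, Max and Mga), above all of them for 4 (Mycn, Mnt, Mxd4 and Mxi1) and between them for 2. Of all probe sets 31.8% were below and 41.7% above in this way. The median difference of the 6 repressors was 0.09, 0.15 and 0.09 on old replicates 1, 2 and 3, beside 0.48, 0.43 and 0.05 for all tested probe sets. Among the repressors Mga at -3.26, -3.12 and -0.21 stood apart from the other 5, whose differences lay between -0.83 and 0.89. Myc differed by -1.56, -1.08 and -1.40 on the same arrays. Whether activators and repressors differed from each other was not tested, because the members were chosen with these values known.

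Around the network, 8 lists of genes were read from the same fit, and 0 genes of any list passed in either direction with all 3 old arrays. The counts that follow are therefore those on old replicate 3 alone, beside 5.24% of all probe sets called lower and 1.76% called higher. Of 29 measured targets that MYC is known to activate, 5 were called lower and 0 higher. Odc1, which makes polyamines and is a classic MYC target, was at 7.74, 7.35 and 8.34 on old replicates 1, 2 and 3, against 9.05, 8.85 and 9.02 on young replicates 1, 2 and 3. It was 0.64 ± 0.14 (SE) lower on old replicate 3 (adjusted p = 0.0413 with limma). Fbl, the nucleolar methyltransferase fibrillarin, was at 7.69, 7.40 and 8.34 on the old arrays, against 9.18, 8.90 and 9.34 on the young arrays, and was 0.79 ± 0.18 (SE) lower on old replicate 3 (adjusted p = 0.0456 with limma). Both have 2 probe sets and are given by the brighter one.

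The other 3 called targets were named after their values were seen. They were Cdk4, the G1 kinase, at -0.90, Nop58, a core protein of nucleolar guide RNA particles, at -0.93, and Gnl3, the nucleolar protein nucleostemin, at -0.97 on old replicate 3. The median of the 29 targets was -1.16, -0.88 and -0.27 on old replicates 1, 2 and 3, beside 0.48, 0.43 and 0.05 for all tested probe sets. Many of the latter lie within the receptor level, and without the dimmest 30% their median old minus young difference was -0.10 instead of 0.35. The SIN3 corepressor genes had medians of -2.06, -1.63 and -0.26, the granulocyte markers -2.64, -1.76 and -0.13, and the repressed targets 0.68, 0.76 and -0.07. A fall was thus not particular to MYC targets. Among the young arrays 24 of the 29 were highest on young replicate 3, beside 36.5% of all probe sets. The same held for 12 of 14 genes of the SIN3 corepressor, 8 of 11 partners of Mga, 9 of 15 coactivators, 6 of 11 stability genes, 2 of 7 repressed targets, 1 of 8 upstream genes and 0 of 5 other network factors. Tert, the telomerase subunit, was within the receptor level on all 6 arrays.

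Of 7 measured genes that MYC is known to repress, 1 was called higher on old replicate 3 and 0 lower. It was Ndrg1, a stress-response gene of growth arrest, at 6.25, 5.75 and 5.50 on old replicates 1, 2 and 3, against 4.76, 4.91 and 4.76 on young replicates 1, 2 and 3. It was 0.69 ± 0.13 (SE) higher on old replicate 3 (adjusted p = 0.0306 with limma), where it was above the receptor level, as it was not on old replicates 1 and 2 or young replicate 1. On young replicate 2 it was 4.91 against a receptor level of 4.84, and the receptor level itself was 5.17 on old replicate 3, so the size of this difference is measured against values near background. Ndrg2 was within the receptor level on all 3 old arrays and differed by 0.20 ± 0.14 (SE, adjusted p = 0.382 with limma) on old replicate 3. Gadd45a, which responds to DNA damage and growth arrest, stood on the other side, with 6.37, 6.73 and 6.33 for the old arrays, against 6.81, 7.29 and 6.94 on the young arrays. Its difference on old replicate 3 of -0.68 ± 0.19 (SE) did not pass (adjusted p = 0.0734 with limma).

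Of 15 measured coactivators of MYC, 3 were called lower on old replicate 3. Wdr5, a scaffold that holds MYC on chromatin, was at 5.11, 5.41 and 5.46 on old replicates 1, 2 and 3, against 6.25, 6.13 and 6.32 on young replicates 1, 2 and 3. It was 0.77 ± 0.13 (SE) lower on old replicate 3 (adjusted p = 0.0243 with limma). Smarcb1, a SWI/SNF subunit, was 0.59 ± 0.14 (SE) lower (adjusted p = 0.0475), and Ccnt1, the cyclin of the elongation kinase P-TEFb, named after its values were seen, was 0.59 ± 0.12 (SE) lower (adjusted p = 0.0380), both with limma.

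Among 11 measured genes for MYC protein stability, 1 was called lower on old replicate 3, Stub1, a chaperone-linked ubiquitin ligase, by 0.74 ± 0.14 (SE, adjusted p = 0.0285 with limma). Fbxw7, the ligase subunit that recognises phosphorylated MYC, differed by -0.42 ± 0.14 (SE) and did not pass (adjusted p = 0.101 with limma). Usp36, a nucleolar deubiquitinase of MYC, differed by 0.09 ± 0.13 (SE, adjusted p = 0.681 with limma).

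The partners of the repressors gave no calls on old replicate 3. Of 14 measured genes of the SIN3 and histone deacetylase corepressor 0 were called, with a median of -2.06, -1.63 and -0.26 on old replicates 1, 2 and 3. Rbbp4 and Rbbp7, its histone-binding subunits, differed by -0.52 ± 0.18 and -0.54 ± 0.18 (SE) on old replicate 3, at adjusted p of 0.111 and 0.108 with limma. Of 11 measured partners of Mga in PRC1.6 also 0 were called. Cbx3, a heterochromatin protein with 7 probe sets, differed by -0.48 ± 0.14 (SE) on old replicate 3 in its brightest one, Pcgf6 by -0.38 ± 0.14 and Rybp by 0.32 ± 0.16, at adjusted p of 0.0818, 0.134 and 0.244 with limma.

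**Figure D4:**
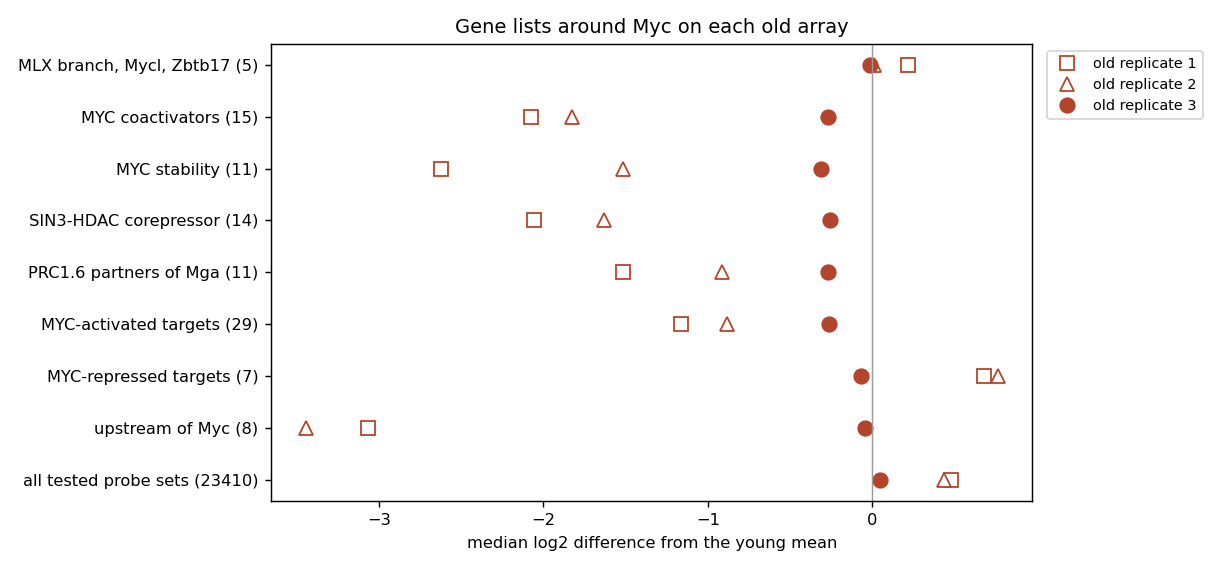
Median log2 difference from the young mean on each old array for 8 gene lists, with the number of measured genes in brackets, and for all tested probe sets. On old replicate 3 (filled circles) the list medians lie between -0.31 and -0.02, all below the 0.05 of all probe sets. Many probe sets of that total lie within the receptor level. On old replicates 1 and 2 they spread from -3.44 to 0.76.

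Genes that act upstream of Myc in B cell progenitors lay close to the young mean on old replicate 3, between -0.13 and 0.09. Of the 8 genes 0 were called there, and the median difference was -0.04. The interleukin-7 receptor chain Il7r, chosen with its values known, stood at 5.73, 6.30 and 10.08 on old replicates 1, 2 and 3, against 10.15, 10.13 and 9.96 on young replicates 1, 2 and 3. Ikzf1 and Irf4, factors that restrain Myc in pre-B cells, each differed by -0.06 on old replicate 3 (SE 0.13 and 0.12, adjusted p = 0.788 and 0.778 with limma). Stat5a, a transducer of the interleukin-7 signal, differed by -0.06 ± 0.16 (SE, adjusted p = 0.847 with limma). On old replicates 1 and 2 all 8 lay within the receptor level.

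Of the 5 other factors of the network, Mycl, Mlx, Mlxip, Mlxipl and Zbtb17, 0 were called on old replicate 3. Mlx, which takes the place of MAX for the glucose-sensing factors of the network, was at 5.06, 4.90 and 5.75 on old replicates 1, 2 and 3, against 6.16, 6.04 and 5.97 on young replicates 1, 2 and 3. It differed by -0.30 ± 0.14 (SE) on old replicate 3 and did not pass (adjusted p = 0.199 with limma). Mlxipl, the factor also called ChREBP, was within the receptor level on all 6 arrays, and Mycl, the third MYC paralogue, on all 3 old arrays and young replicate 2.

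**Figure D5:**
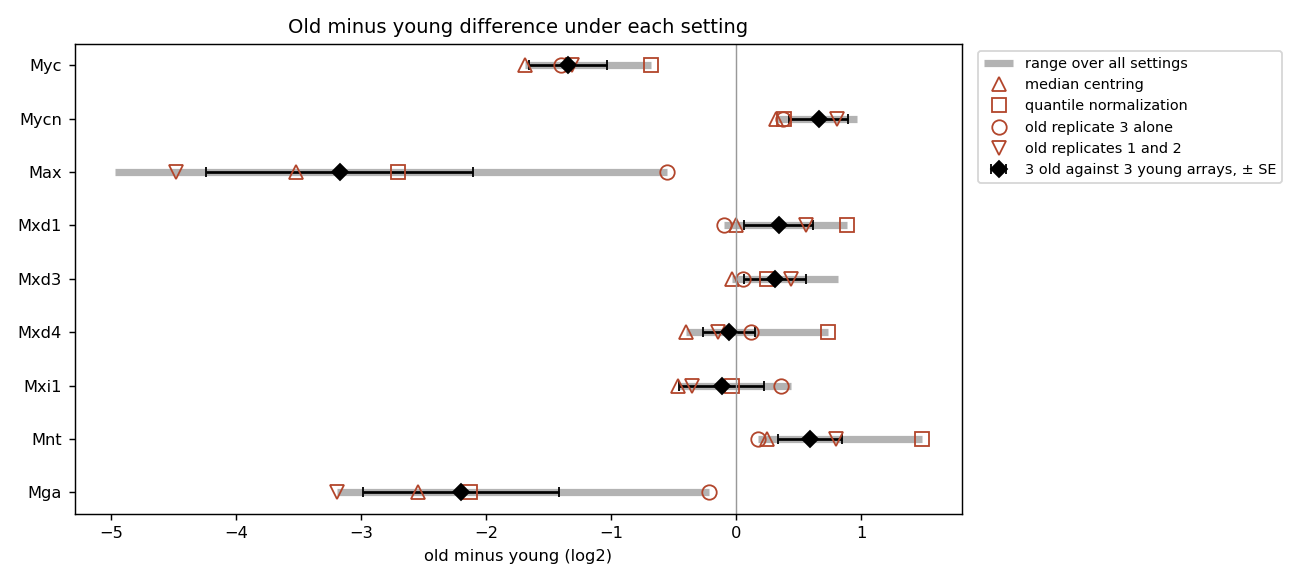
Old minus young difference of each member under every setting tried. Black diamonds with SE are the comparison of 3 old with 3 young arrays, red open symbols are 4 of the alternatives and grey bars span all of them. Myc stays between -1.69 and -0.69 and Max and Mga stay below 0, Mycn and Mnt stay above 0, and Mxd1, Mxd3, Mxd4 and Mxi1 cross 0.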

How the data were processed

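The 6 arrays of sorted B cell progenitor RNA were compared by the age that the labels give. The deposited values are probe set intensities on a linear scale, for which the submitters' processing notes name RMA without a version (its settings: not given in the sources used here). The values ran from 3.58 to 8502, so log2 was taken first. Of 28940 probe sets, 23410 are paired with a gene by the platform annotation (21789 with 1, 1621 with several) and 5530 with none. Testing of the 23410 used limma 3.58.1 under R 4.3.3 (age as the only factor, moderated variances, 2-sided, Benjamini-Hochberg over all probe sets, adjusted p under 0.05), after a check on simulated data. That check gave both groups the spread of the young arrays, so it does not cover the wider spread among the old ones. Gene symbols were updated through gene identifiers. A gene outside the members with several probe sets is given by the brightest. The number of arrays limits the precision.

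The members and lists were chosen with earlier results of these data known. Genes named are all members, up to 3 per list by smallest p (2 in the direction most members took and 1 in the other), and the 5 closest to Myc. Of 106 list entries, 6 were not analysed here. Both groups share replicate numbers in the titles. Deviations of same-numbered arrays correlated at 0.157, 0.150 and 0.279, above the limit of 0.1, but so did old replicate 1 and young replicate 2, at 0.153. The replicate block was an alternative fit. The receptor level stands in for detection calls, since none were used. Figures were drawn with matplotlib 3.10.9, and Python 3.11.15 with numpy 2.4.6 and pandas 2.3.3 handled the tables.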

Additional observations from a re-analysis of the deposited data

How the results depend on the processing

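The count of called members was 0 of 9, and of called probe sets 0 of 23410, with the replicate number as a block (smallest adjusted p = 0.081 with limma), without the dimmest 30% of probe sets (mean level under 4.32), over all 28940 probe sets, after median centring or quantile normalization, with trended robust moderation and at an adjusted p under 0.1. The block changed no call. With estimated array weights 19998 probe sets and 6 members were called (3 lower, 3 higher), and with old replicate 3 alone against the young arrays 1638 and 2. The array weights were 0.2881, 2.598 and 0.04473 on old replicates 1, 2 and 3, against 4.263, 3.755 and 1.866 on young replicates 1, 2 and 3. The weighted fit thus nearly left out old replicate 3. Leaving out 1 array at a time gave 0 to 19285 probe sets and 0 to 6 members. Only without old replicate 3 was the count above 0. The cause was not tested. The direction of Myc, Mycn, Max, Mnt and Mga stayed the same in every setting. It turned for Mxd1 after median centring (-0.0067) and on old replicate 3 alone (-0.098), and for Mxd3 after median centring (-0.037). For Mxd4 it turned after quantile normalization (0.73) and on old replicate 3 alone (0.12). For Mxi1 it turned with array weights (0.067) and on old replicate 3 alone (0.36). Raising old values to the receptor level was an alternative chosen after seeing the data and tried for all members but Mycn. This gave 0.44 for Mxi1, a sign fixed by the raising, since the level on old replicates 1 and 2 exceeded every young value. Leaving out 1 array, Mxd4 ranged from -0.15 to 0.032 and Mxi1 from -0.35 to 0.24. Each member has 1 probe set, so the mean over probe sets could not be tried. Signal over background limits Mycn on all but 1 array and most members on old replicates 1 and 2.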
